A study of Rattus norvegicus with 24 samples.

Results

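The cytosolic ribosomal protein genes were examined in the left dorsal striatum of rats, where 81 genes of the family had a probe on the array and 80 of them were measured, among 20902 genes measured in all. Members were chosen by name alone: probes for Rpl or Rps genes with a number and at most 1 letter (a, l or x), with Rplp0, Rplp1, Rplp2 and Rpsa. S6 kinase genes and names marking pseudogenes or unplaced loci were left out. Where several probes of a gene passed the background filter, the brightest over all arrays stood for it. The rules of name and brightness used no response to treatment, but the family was chosen with earlier results of these data known. Of the measured members 48 encode proteins of the large (60S) subunit and 32 proteins of the small (40S) subunit. The gene not measured was Rpl39l, well above background on 4 of 24 arrays.

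All animals were male Long Evans rats of 80 to 90 days that received 1 intraperitoneal injection a day on 5 days and were killed 24 h after the last. The chronic group received MDPV (3,4-methylenedioxypyrovalerone, a synthetic cathinone that blocks dopamine and noradrenaline reuptake) at 1 mg/kg on each of the 5 days. The acute group received saline on 4 days and 1 injection of MDPV at the same dose on the last day, and the saline group received saline on all 5. Total RNA was hybridised to 1-colour arrays, 8 per group, and a pair of arrays with the same letter in the title counted as 1 unit, so that each group had the 6 units the design states. The labels do not say which arrays come from separate animals, so the p-values measure the spread between these units only, which may in part be technical. In bulk tissue, fewer cells of a type and less RNA per cell cannot be told apart.

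The cytosolic ribosome translates all nuclear-encoded messages outside mitochondria, and its proteins are made in near-equal amounts and assembled with ribosomal RNA in the nucleolus. In vertebrates nearly all of their mRNAs begin with a C followed by an unbroken run of pyrimidines, the 5′ terminal oligopyrimidine or TOP tract, through which the mTOR pathway and the protein Larp1 set how strongly they are translated. In neurons the mRNAs are also found in dendrites and axons, and the abundance of the messages makes several of them, among them Rplp0, Rpl13a and Rpl19, common reference genes for PCR.

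The start sites show what the members share in sequence. RefSeq promoter windows (build GRCr8) were matched by symbol for 64 of the 81 genes, with 65 entries because Rps27a had a pair of them. A run of at least 5 letters, the first a C and the others C or T, began within 10 bases of the annotated start on the coding strand in 41 of 65 entries (63.1%), against 27.3% of 33469 promoters of all genes. The same run read on the other strand was found in 18.5% of the family's entries and 33.3% of all promoters. The longest run had 21 letters and the median among entries with one was 10. The windows below are 30 bases long, 12 before and 18 from the annotated start on, with the run in capitals, and show 4 genes described in the results with a tract at the start and 2 without one at the annotated position.
Rpl19, chr10:83519052-83519081, plus strand: gaccagcaagCTCTTTCCTTTCgctgctgc
Rpl10, chrX:157205838-157205867, plus strand: gcgtgggagcgtCTCTTTTCCTCTggcgcg
Rps18, chr20:4933733-4933762, plus strand: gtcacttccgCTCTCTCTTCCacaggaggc
Rplp1, chr8:71290855-71290884, minus strand: ggcgcatgtgatCCTTTCCTCagctgccgc
Rpsa, chr8:128728867-128728896, plus strand: ttccgcgctaccctggaacgggtccgtacg
Rpl6, chr12:41011673-41011702, minus strand: ttttacatcactagatggcgggtgaaaagg
With a wider window, 30 bases either side, and a run of at least 8 letters, the count was 48 of 65 (73.8%) against 18.9% of all promoters. The letters CTTTCC, on either strand anywhere in the 300 bases, were present in 47.7% of the family's entries and 26.4% of all. Members with a run at the start had a median chronic minus saline difference of -0.10 (log2, 41 genes) and those without one -0.11 (23 genes).

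The 24 arrays lay on 3 slides of 8, each holding all 3 groups, and 50.7 to 71.3% of their spots were well above background. No spot of any array was saturated. Saline replicate 4 had the lowest level of striatal projection neuron markers and is left out in turn with the other units below. All 10 of those markers, such as Ppp1r1b and Pde10a, were well above background on all 24 arrays, so defining markers of the labelled tissue were present.

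The level of the family, taken as the mean over the 80 genes of log2 signal scaled to the array's 75th percentile, ran from 3.67 to 4.01 with a median of 3.75 on chronic arrays. It ran from 3.72 to 4.03 with a median of 3.92 on acute arrays, and from 3.69 to 4.04 with a median of 3.96 on saline arrays. The groups overlapped: chronic replicates 5 and 8 lay among the higher arrays, and saline replicates 7 and 8 among the lowest. Over units the level averaged 3.79 ± 0.06 in the chronic group, 3.91 ± 0.09 in the acute group and 3.90 ± 0.12 in the saline group (SD, n = 6 each). The 40S and 60S means followed each other closely over the arrays (r = 0.97, rho = 0.95, 24 arrays that share slides and scaling).

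**Figure D1:**
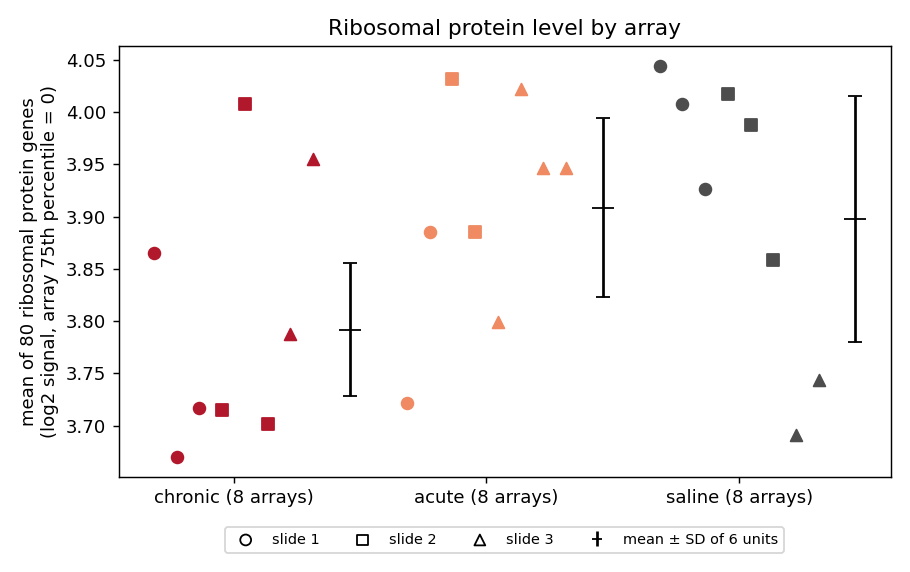
Mean log2 signal of the 80 ribosomal protein genes (array 75th percentile set to 0) on each array, by group, with symbols for the slide and bars for the mean ± SD of 6 units. The chronic units averaged 3.79, the acute units 3.91 and the saline units 3.90, and on slide 3 the chronic arrays lie above the saline ones.

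Chronic against saline, the comparison of repeated MDPV with vehicle, gave lower values for 77 of the 80 genes (the background, 43.5% of all genes, was below 0), with a median difference of -0.10 on the log2 scale against 0.02 for all genes. The shift was small: the quartiles of the members were -0.13 and -0.06. Since the members vary together, the 77 are not 77 separate observations. limma called no gene of the family and none of the 20902 genes at an adjusted p under 0.05 (percent called 0), and the smallest adjusted p of any gene was 0.713. At an unadjusted p under 0.05 there were 3 members of 80, or 3.75%, against 2.87% of all genes. All 3 were lower, and 1.35% of all genes had such a p and were lower. This count is small, and the 3 are not separate observations either. No member had groups that did not overlap, against 10 genes in all.

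Among 60S proteins the smallest unadjusted p in that comparison belonged to Rpl41, which encodes a very short basic protein of the large subunit. Rpl41 lay between 5.91 and 6.16 (median 6.03) on chronic arrays and between 5.98 and 6.30 (median 6.17) on saline arrays. The difference was -0.14 (SE 0.06, limma unadjusted p = 0.0332, adjusted p = 0.999), and the ranges overlapped over most of their length. Rpl19, a large-subunit protein near the bridge to the small subunit, lay between 4.73 and 5.36 (median 5.04) on chronic arrays and between 5.00 and 5.45 (median 5.27) on saline arrays. Its difference was -0.21 (SE 0.09, limma unadjusted p = 0.0429), with chronic replicates 3 and 4 the lowest arrays. Rpl18 differed by -0.18 (SE 0.09). The reference genes Rpl13a, a protein also known as part of an inhibitor of translation of inflammatory messages, and Rpl5 and Rpl11, which with 5S RNA bind the p53 ligase Mdm2, differed by -0.16, -0.09 and -0.05. Rpl22, an RNA-binding protein of the 60S surface, differed by -0.12 (SE 0.13).

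Among the 40S proteins Rps29, a small zinc-binding protein of the head, lay between 5.10 and 5.46 (median 5.33) on chronic arrays and between 5.25 and 5.67 (median 5.44) on saline arrays. The difference was -0.14 (SE 0.07, limma unadjusted p = 0.0607, adjusted p = 0.999), and the ranges overlapped. Rps6, the protein that S6 kinases phosphorylate downstream of mTOR, lay between 3.21 and 3.35 (median 3.30) on chronic arrays and between 3.23 and 3.62 (median 3.36) on saline arrays, a difference of -0.10 (SE 0.07). Rps19, mutated in Diamond-Blackfan anaemia, differed by -0.12 (SE 0.08), Rps3, at the mRNA entry site, by -0.09 (SE 0.06), and Rps27a, made as a fusion with ubiquitin, by -0.16 (SE 0.09). Rpsa, also known as the laminin receptor, differed by -0.14 (SE 0.12) and Rps4x, encoded on the X chromosome, by -0.03 (SE 0.06). Rps2 (0.05) and Rpl6 (0.02) had differences above 0, each within its SE.

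The P-stalk proteins Rplp0, Rplp1 and Rplp2 form the lateral arm of the 60S subunit that recruits and activates the elongation factors. Rplp0 lay between 4.60 and 5.01 (median 4.81) on chronic arrays, between 4.57 and 5.12 (median 4.99) on acute arrays and between 4.74 and 5.17 (median 4.98) on saline arrays. Its chronic minus saline difference was -0.13 (SE 0.08), that of Rplp1 -0.11 (SE 0.07) and that of Rplp2 -0.02 (SE 0.06). None passed the test, and the 95% interval for Rplp2 ran from -0.14 to 0.11.

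**Figure D2:**
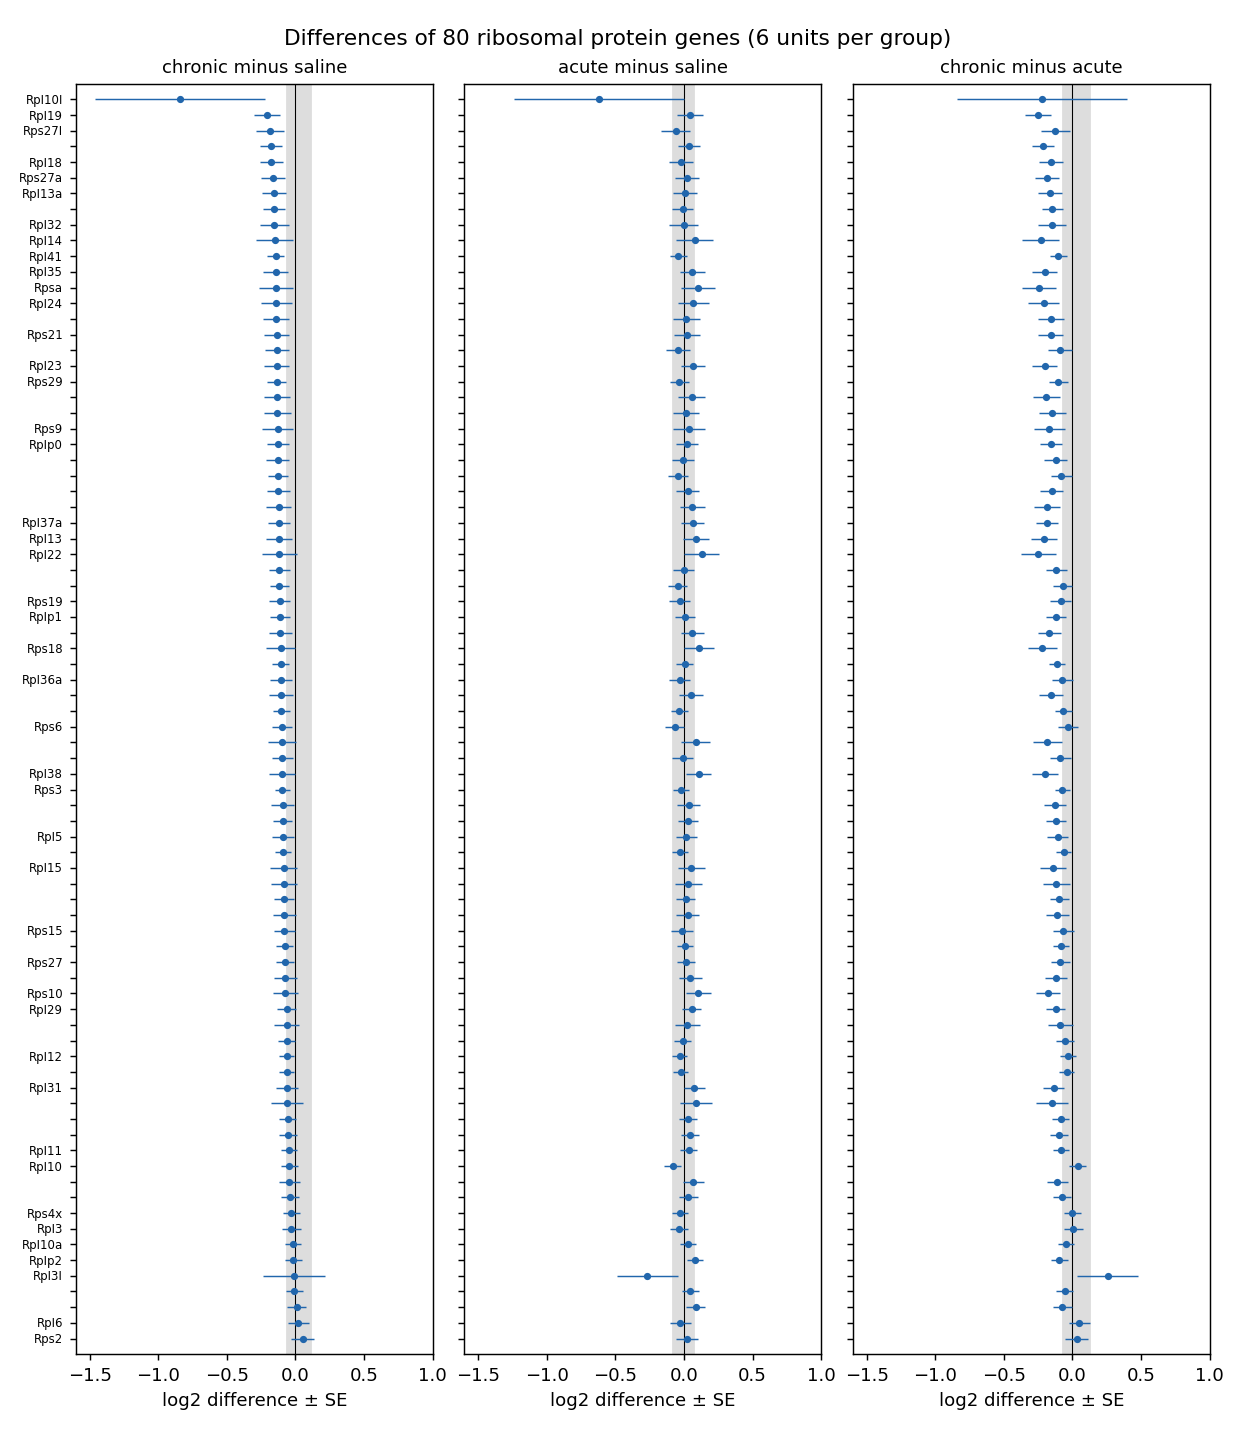
Fitted log2 difference ± SE of each measured ribosomal protein gene in the 3 comparisons (6 units per group), ordered by chronic minus saline, with the grey band running between the quartiles of all 20902 genes. Genes described in the text are labelled. In the chronic minus saline panel 77 of 80 points lie below 0, in the acute minus saline panel 28 and in the chronic minus acute panel 75.

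Acute against saline, a single MDPV injection against none, left the family near 0. The median difference was 0.02 against 0.00 for all genes, and 28 of 80 members were below 0 against 50.9% of all genes. limma called none at an adjusted p under 0.05, in the family or among all genes (percent called 0), and 0 members against 1.59% of all genes had an unadjusted p under 0.05 (0.966% lower). The smallest unadjusted p among members was that of Rplp2, which lay between 4.96 and 5.16 (median 5.06) on acute arrays and between 4.81 and 5.18 (median 5.02) on saline arrays (difference 0.08, SE 0.06, limma unadjusted p = 0.2). Rps10, Rpl38 and Rps18 had differences of 0.10 to 0.11, and on the other side stood Rpl10 (-0.08), Rps6 (-0.07) and Rpl41 (-0.04). The dim paralogs Rpl10l (-0.62, the lowest of any member) and Rpl3l were also lower. No member had acute and saline units that did not overlap.

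Chronic against acute, repeated against single dosing, gave a median of -0.12 against 0.02 for all genes, with 75 of 80 members below 0 and 43.5% of all genes below 0. This comparison shares its chronic units with the first one. limma again called 0 genes at an adjusted p under 0.05 (percent called 0), while 7 of 80 members, or 8.75%, had an unadjusted p under 0.05 against 2.48% of all genes. That count was 2 after quantile normalization, 1 with normexp and quantile normalization, 1 with the authors' deposited table and 22 with arrays centred on the median. All 7 were lower, and 0.866% of all genes had such a p and were lower. Among them were Rpl19 (-0.25, SE 0.09, limma unadjusted p = 0.0172), Rpl23 (-0.20), Rpl37a (-0.18), Rpl35 (-0.20), Rpl13 (-0.21) and Rpl38 (-0.20). Rpl23, a protein at the face of the 60S subunit that meets the 40S, lay between 4.23 and 4.77 (median 4.48) on chronic arrays and between 4.52 and 4.89 (median 4.75) on acute arrays. Chronic replicates 2 and 6 were its lowest values, and the ranges overlapped. Members on the other side were Rpl6 (0.05), Rpl10 (0.04), Rps2 (0.03), Rpl3 (0.01) and the dim Rpl3l (0.26, SE 0.22).

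The direction against saline was not the same on every slide. Within slide 1 the median difference of the family was -0.26 for chronic and -0.18 for acute, both minus saline. Within slide 2 it was -0.16 and 0.02, and within slide 3 it was 0.19 and 0.23. Chronic minus acute kept its sign on all 3 slides, at -0.07, -0.17 and -0.04. On slide 3 the saline arrays were low, with a mean level of 3.72 over 2 arrays, against 3.99 and 3.95 over 3 saline arrays each on slides 1 and 2. The chronic arrays of slides 1, 2 and 3 had mean levels of 3.75, 3.81 and 3.87, and the acute arrays 3.80, 3.96 and 3.93. Without saline replicate 7 the chronic minus saline median was -0.15 and 29 members had an unadjusted p under 0.05, and without saline replicate 4 the median was -0.08 with 0 such members. Over the 18 units left out in turn that count ran from 0 to 29, and it was also 0 without saline replicate 3, without saline replicates 1 and 8, without saline replicates 2 and 5, and without chronic replicate 3. For chronic minus acute it ran from 1 without chronic replicate 3 to 23 without acute replicate 5. The acute minus saline median turned to -0.02 without saline replicate 7 and to -0.01 without acute replicate 3. Arrays that share a title letter differed in the family's level by 0.02 to 0.34, up to 0.34 between chronic replicates 2 and 5 and 0.30 between saline replicates 1 and 8, which is more than the difference between group means.

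Scaling also set the size of the shift. The chronic minus saline median was -0.06 after quantile normalization, against a median of 0.02 for all genes under the same setting, and -0.04 in the authors' deposited value table. Members lower were 71 of 80 after quantile normalization, 72 with normexp and quantile normalization and 63 in the authors' table. In each of these settings 0 members had an unadjusted p under 0.05. With arrays centred on the median the chronic minus saline median was -0.12, with 79 of 80 members lower and 4 with such a p, and the chronic minus acute median was -0.16. Markers of neighbouring tissue moved with the groups as well: 7 measured markers of choroid plexus and ependyma were all lower in chronic than in saline units, with a median difference of -1.71, and 4 of them had an unadjusted p under 0.05. Their mean level ran from -6.26 to -0.53 on chronic arrays, from -5.58 to -2.61 on acute arrays and from -5.81 to -0.46 on saline arrays, with Ttr and Foxj1 well above background on all 24 and Ttr the farthest apart (-4.95). The correlation of that mean with the family's level was 0.42 (rho 0.40), against -0.53 (rho -0.64) for cortical neuron markers, 0.40 for markers of thalamus, septum and pallidum, and 0.36 for hypothalamic peptides (24 arrays that share slides and scaling). Thalamus, septum and pallidum markers were lower in 8 of 8, with a median of -0.50, hypothalamic peptides in 6 of 7, with a median of -0.76, and cortical neuron markers in 0 of 9, with a median of 0.54. Saline replicate 4 held the highest thalamic and hypothalamic levels of any array, at -0.43 and -0.89. The 10 oligodendrocyte, 9 astrocyte and 9 microglia markers had medians of -0.09, -0.10 and -0.08, and 9, 7 and 7 of them were lower. Blood cell markers were lower in 7 of 8, with a median of -0.17. Striatal projection neuron markers were lower in 0 of 10 in both comparisons with saline, with medians of 0.21 for chronic and 0.24 for acute, and their mean level had an r of -0.15 with the family's. The part of these markers in the result was not tested.

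The family varied together over the 24 arrays. The median Pearson r over 3160 pairs of members was 0.62, and 87.6% of pairs were above 0. The mean r was 0.50 in the family and 0.02 over all pairs of genes. Within the 40S set the median was 0.59, within the 60S set 0.63 and between them 0.61. After group and slide means were removed it was 0.61, so the shared variation lay within groups and slides. The 69 mitochondrial ribosomal protein genes measured, which serve a separate ribosome, had a median pairwise r of 0.09. These correlations describe arrays that share scaling and slides, and the value depended on the scaling: 0.79 with arrays centred on the median, 0.50 after quantile normalization and 0.45 with normexp background correction and quantile normalization together.

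Of the 80 genes 47 had an r above 0.8 with the mean of the others. The highest were Rpl35, Rpl24, Rpl32, Rps21 and Rpl13, at 0.95 to 0.96, proteins of both subunits. Rpl35, which sits by the nascent chain exit, lay between 5.07 and 5.61 (median 5.24) on chronic arrays, between 5.14 and 5.72 (median 5.50) on acute arrays and between 5.09 and 5.70 (median 5.48) on saline arrays. Among members well above background on all 24 arrays the largest SDs over arrays were those of Rpl14 (0.32), Rpsa (0.30), Rpl22 (0.28), Rpl24 (0.26) and Rps9 (0.26), each of which also followed the family (r of 0.87 to 0.96).

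**Figure D3:**
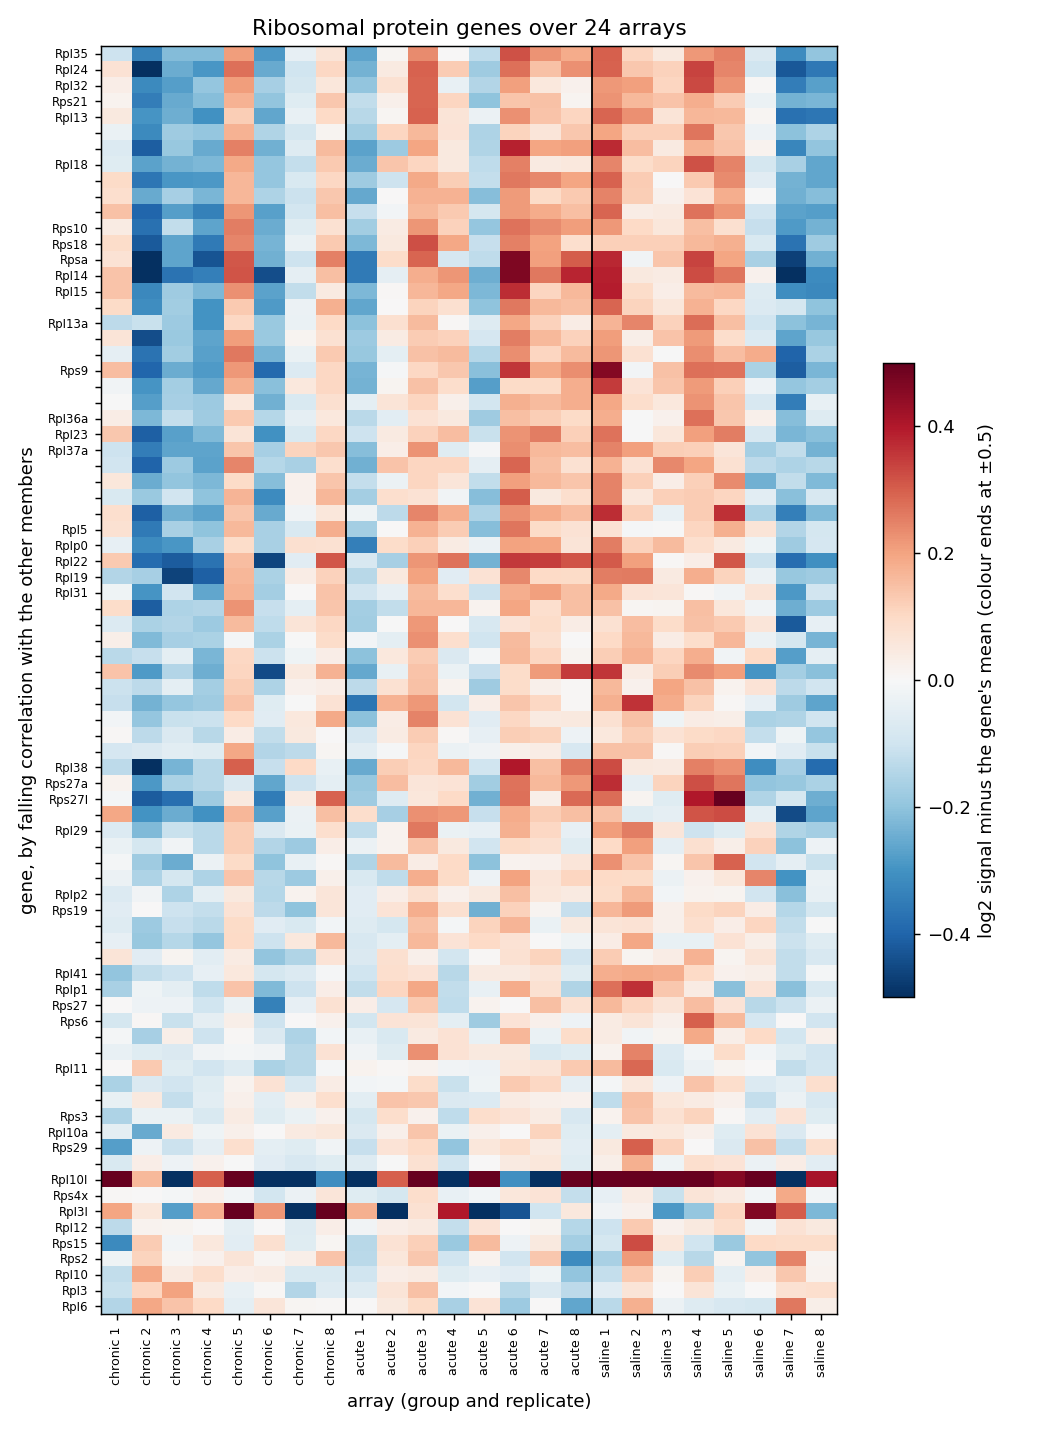
Log2 signal of each measured ribosomal protein gene minus its own mean on the 24 arrays, columns by group and rows by falling correlation with the other members; the colour scale ends at ±0.5. Genes described in the text are labelled. The upper rows share one pattern of high and low arrays, and the lowest rows, from Rpl10l to Rpl6, do not follow it.

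The members with an r below 0 against the others were Rpl6 (-0.54), Rpl3 (-0.31), Rpl10 (-0.30), Rps2 (-0.17), Rps15 (-0.17) and Rpl12 (-0.06). The count of 6 depended on the scaling. It was 1 with arrays centred on the median, and 7 after quantile normalization and with the authors' values. Rpl3 is a core protein of the peptidyl transferase region, Rpl10 is among the last to join the 60S subunit, Rps2 lies at the mRNA entry, Rps15 near the decoding site and Rpl12 at the base of the stalk. Rpl6 lay between 2.98 and 3.32 (median 3.17) on chronic arrays, between 2.87 and 3.23 (median 3.13) on acute arrays and between 3.00 and 3.40 (median 3.09) on saline arrays. The groups overlapped, with saline replicate 7, low for the family, its highest array. The departure of Rpl10 belonged to a probe and not to every probe of the gene. Of its 2 probes, that starting at position 458 of the transcript had r = -0.30 and that starting at 692 had r = 0.90, and the correlation between them was -0.15. Rpl6 and Rpl3 had only 1 probe each, so probes could not be compared for them.

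Probe position went with how a probe followed the family. A stretch of 30 bases is given from probes of 2 genes whose probes differed, Rpl10 and Rps18, to show that each falls in a different place of 1 transcript. For Rpl19 and Rps10 the stretch holds the letters AATAAA, those of the common polyadenylation signal, in capitals. The position is that of the whole 60-base probe in rn4, as the files give it.
Rpl10, position 458, chrX:160336961-160337020, minus strand: gaaccaaactgcagaataaggaacatgtga
Rpl10, position 692, chrX:160336646-160336705, minus strand: ttccacagtgcgctcctatgcgctatcaaa
Rps18, position 64, chr20:5084157-5084216, plus strand: tccttcaagtactcaacaccaacatcgatg
Rps18, position 444, chr20:5087201-5087260, plus strand: actggccacaggggccatactgtgggtgtg
Rpl19, position 643, chr10:86792067-86792126, plus strand: atcagtcattaaAATAAAacaagccttcgt
Rps10, position 523, chr20:5849321-5849380, minus strand: attatgttgtgttgAATAAActttaaaaaa
Rps18, at the head of the 40S subunit, is the clearest case. Its probe at position 64 lay between 1.43 and 1.98 (median 1.74) on chronic arrays, between 1.27 and 1.75 (median 1.52) on acute arrays and between 1.31 and 2.06 (median 1.60) on saline arrays. Its probe at position 444 lay between 3.89 and 4.56 (median 4.18) on chronic arrays, between 4.09 and 4.63 (median 4.45) on acute arrays and between 3.94 and 4.49 (median 4.43) on saline arrays. Across the groups the medians of these probes ran in opposite order, and over 24 arrays their r was -0.68. The same order of r, later probe above earlier, held for Rpl29 (0.79 and -0.48), Rpl10a (0.42 and -0.67), Rplp2 (0.76 and -0.32) and Rps10 (0.95 and -0.11), genes picked for the size of that gap after the values were seen.

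In all, 55 members had at least 2 kept probes on 1 transcript, a median of 145 bases apart between the first and the last. The last probe had the higher r with the family in 51 of the 55 and the larger SD in 48, or 87.3%. Among 2638 genes outside the family with such a pair, a median of 989 bases apart, the last probe had the larger SD in 34.6%. The median r was 0.87 for the last probes and 0.57 for the first, and the exceptions were Rpl15, Rpl31, Rpl36a and Rps21. The brightest probe, which stands for the gene in the family's mean, was the last in 38 of the 55 genes and the first in 10. The mean against which r was taken thus held more last than first probes, which favours a higher r for the last. The probes printed 10 times on the array were often the earlier ones, so position and printing overlap: with 10 spots for the first and 1 for the last probe, the last was higher in 30 of 31 genes, and with 1 spot for both in 15 of 18. The 10 spots of a member probe had a median SD of 0.04 within an array. Rps2 and Rps15 stayed below 0 on both of their probes.

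**Figure D4:**
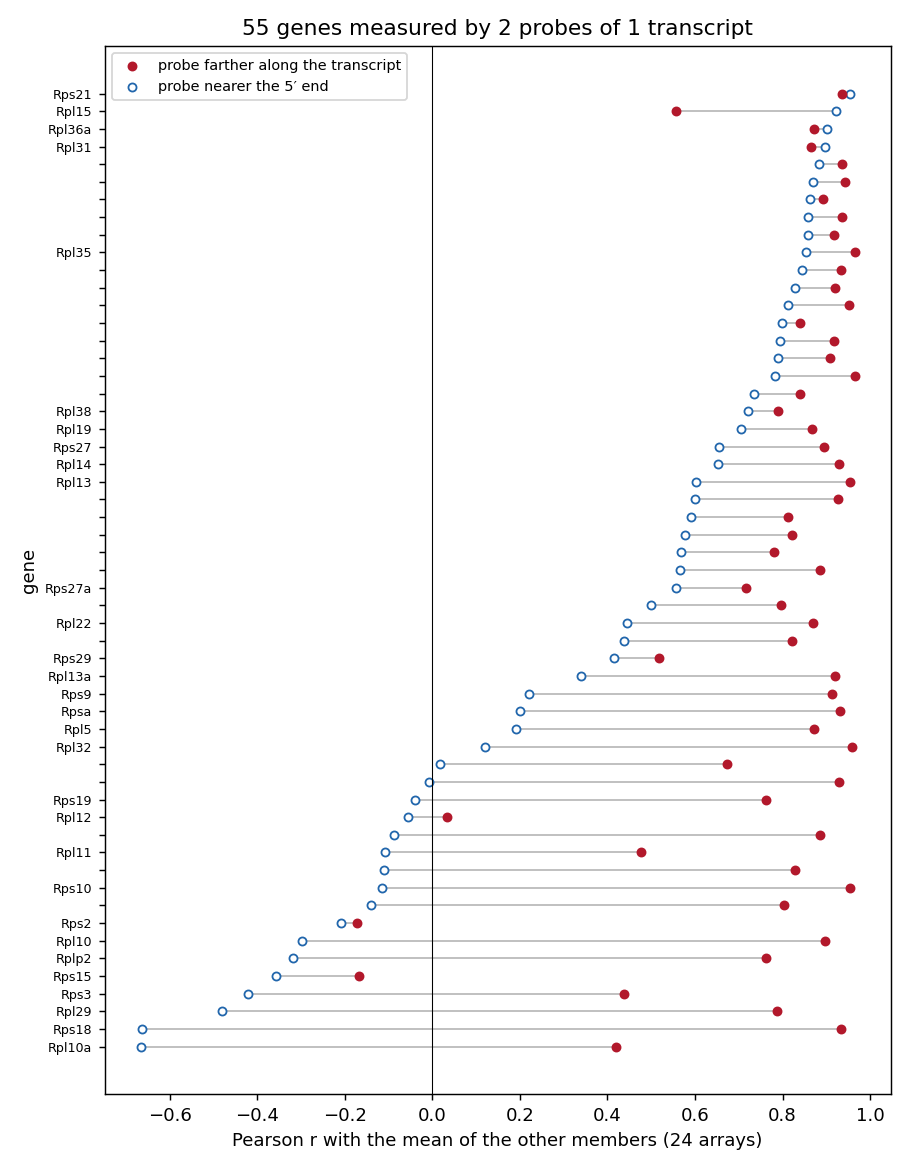
Pearson r with the mean of the other ribosomal protein genes over 24 arrays for the first (open) and the last (filled) probe of the 55 genes with at least 2 kept probes on 1 transcript. Genes described in the text are labelled. The filled point lies to the right of the open one in 51 of 55 genes. The mean of the others holds the last probe for 38 of these genes and the first for 10.

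The letters AATAAA, on the probe's own strand, were in 42 of 195 kept member probes (21.5%) and in 2821 of all 26259 kept probes, and on either strand in 13.9% of all. The 42 had a median r of 0.89 with the family and none below 0, against 0.72 and 31 below 0 among the 153 others. Their median chronic minus saline difference was -0.12, with 42 of 42 below 0, against -0.07 for the others. Printing overlaps with this contrast, since the 69 member probes printed 10 times had a median r of 0.52. The 84 probes without AATAAA that were printed once had a median r of 0.80, with 10 below 0, and a median difference of -0.09. Over the 195 probes the difference and r with the family had a Spearman's rho of -0.69, a description over probes that share arrays and, in part, genes. The relation is in part built in, because the family's mean was itself lower in the chronic group and a probe that follows it tends to be lower too. The probe's GC content had a rho of -0.33 with r and 0.31 with the difference.

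Averaged over the 55 genes, the last probes differed between chronic and saline units by -0.10 and the first by -0.06. The last probes averaged 3.95 ± 0.08 in the chronic group, 4.08 ± 0.10 in the acute group and 4.05 ± 0.14 in the saline group, and the first probes 2.90 ± 0.03, 2.96 ± 0.06 and 2.96 ± 0.05 in the same order (SD, n = 6 units each). Both sets were lower in the chronic group, by less than or about the SD of the saline units. Their means over the arrays had an r of 0.79. Among the first probes the median pairwise r between genes was 0.28, against 0.75 among the last.

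A position measure from outside the family moved with its level. In 2104 transcripts of other genes with kept probes at least 300 bases apart, the last minus the first probe, centred per transcript, had a median per array that ran from -0.33 to 0.09 on chronic arrays, from -0.10 to 0.13 on acute arrays and from -0.14 to 0.11 on saline arrays. The group medians were -0.03, 0.04 and -0.01 for chronic, acute and saline. Its r with the family's level was 0.73 (rho 0.72, 24 arrays sharing slides and RNA), 0.68 without the 2 arrays farthest from the median, and 0.64, 0.74 and 0.92 within slides 1, 2 and 3. With the last minus first difference inside the family, over the 55 genes, its r was 0.90 (rho 0.94). The array's 75th percentile signal had an r of -0.51 with the level (rho -0.57), and -0.71, -0.26 and -0.76 within slides 1, 2 and 3. Its group medians were 2330 for chronic, 2193 for acute and 1946 for saline arrays, with overlapping ranges. The part of these measures in the group differences was not tested.

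**Figure D5:**
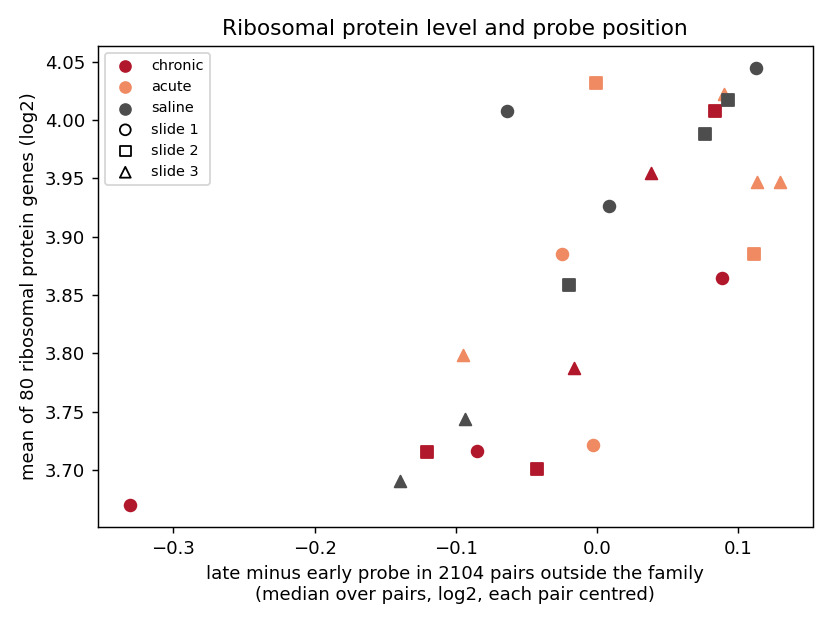
Mean log2 signal of the 80 ribosomal protein genes against the median last minus first probe difference over 2104 transcripts of other genes, 1 point per array, coloured by group and shaped by slide. Chronic replicate 2, at -0.33 and 3.67, is the lowest on both axes, while saline replicate 2 is high for the family (4.01) at -0.06.

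Some members are paralogs, encoded by copies of another member's gene. Rpl10l, a copy known from mouse and human testis, was well above background on 7 of 8 chronic, 6 of 8 acute and 8 of 8 saline arrays. It lay between -6.50 and -3.15 (median -4.14) on chronic arrays, between -6.19 and -2.89 (median -4.07) on acute arrays and between -5.48 and -2.71 (median -3.38) on saline arrays. Its chronic minus saline difference was -0.84 with an SE of 0.62 (limma unadjusted p = 0.19), the largest in the family and the least precise, with an interval from -2.14 to 0.46. The muscle paralog Rpl3l was well above background on 5 chronic, 4 acute and 2 saline arrays and differed by -0.01 (SE 0.22). Rpl39l passed on 1 chronic, 3 acute and 0 saline arrays. Rps27l, a p53 target in human cells, lay between -0.92 and -0.21 (median -0.60) on chronic arrays and between -0.75 and 0.02 (median -0.53) on saline arrays, a difference of -0.19 (SE 0.10), and followed the family with r = 0.80. Its paralog Rps27 differed by -0.07 (SE 0.07, r = 0.64). Ribosomal protein genes have many processed copies in rodent genomes: 6 of 78 probes compared (for Rpl10a, Rpl13, Rpl13a, Rpl32, Rpl37a and Rpl38) were placed by the array's design on another chromosome in rn4 than RefSeq gives the gene in GRCr8, and signals of copies cannot be told apart there. The 6 had a median r of 0.90 and a median chronic minus saline difference of -0.12, against 0.83 and -0.10 for the 72 others.

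Outside the family, the genes with a symbol most like its mean over the 24 arrays were Rpl37a-ps1 (r = 0.94), Mrpl30 (0.93), Uqcrq (0.93), Ndufs5 (0.92), Thra (0.91), Ndufb4 (0.91), Fam195a (0.91) and Psma6 (0.91). The first is named as a ribosomal protein copy, Uqcrq, Ndufs5 and Ndufb4 are respiratory chain subunits, Mrpl30 belongs to the mitochondrial ribosome, Psma6 to the proteasome, and Thra is a thyroid hormone receptor. Of the 50 most alike non-members 38 had a locus or accession number for a name, and 16 were described as ribosomal protein genes.

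Other translation genes were compared as lists. Of 24 measured translation factors and partners known for TOP tracts, 19 were lower in the chronic than in the saline group, with a median of -0.05, and none had an unadjusted p under 0.05. The smallest were those of Eif4a2 (-0.08), an initiation helicase, Eif3k (-0.07) and the elongation factor subunit Eef1g (-0.08). Against acute 17 of 24 were lower, and Eif4a2 (-0.17, limma unadjusted p = 0.03) was among the 2 with an unadjusted p under 0.05. The list mean had an r of 0.86 with the family, but single genes differed: Tpt1 had 0.89 and Eef1g 0.86, while Naca, of the nascent chain complex, had -0.78 and the elongation factor Eef2 -0.61. Other initiation and elongation factors had an r of -0.72 with the family and a chronic minus saline median of 0.04, with 8 of 30 lower. The 37 ribosome biogenesis factors had an r of -0.42 and a median of -0.01, with 20 lower, the 22 genes of the mTOR pathway and TOP control 0.23 and 0.03, with 8 lower, and the 69 mitochondrial ribosomal proteins 0.14 and 0.00, with 35 lower. The 24 ATP synthase and cytochrome oxidase genes had 0.60 and -0.05, with 20 lower, and the 14 proteasome core genes 0.23 and -0.01, with 8 lower. No gene of these lists passed the adjusted threshold in limma in the 3 comparisons.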

How the data were processed

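Per the file headers, each array file holds the processed signal, an intensity already background-subtracted and detrended, with no normalization between arrays. The submitters' processing notes name Agilent Feature Extraction 10.7. The authors' value table holds log2 values of the same arrays, whose method is not given in the sources used here; it was an alternative. Probe coordinates are those of build rn4 in the file headers and were not checked against a genome.

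Intensities were divided by the array's 75th percentile and log2 transformed. Control spots and uneven or outlier spots were left out (312 missing probe values, 1 among the member probes used), and spots of a probe were averaged. Of 45598 probes 26259 were kept, those that passed the well-above-background flag for a share of 0.5 or more of the arrays in any group. A missing value was set to the gene's mean for correlations only. Pairs of arrays with a common title letter were averaged to 1 unit, and limma 3.58.1 compared groups with all 3 in 1 fit and Benjamini-Hochberg adjustment over 20902 genes at 0.05. A difference is the first group minus the second. The number of arrays limits the precision. Sequences are from RefSeq (GRCr8) and the files. Members, lists and named genes (smallest p per direction, lowest and highest correlation, largest SD, paralogs, a fixed set) were chosen with earlier results of these data known. Some genes are not reported by name here. The fit was tested on simulated data. R 4.3.3 and Python were used.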

Additional observations from a re-analysis of the deposited data

Results flagged for a closer look

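Within groups of 6 units, 4 values lay far from the other 5 by Dixon's ratio, out of 129 groups examined for the family's mean and 42 named members. Chance alone gives about 1 such group in 20, and 4 of 129 is below that share. In the chronic group Rps15 was 4.24 on replicate 1 with the nearest unit at 4.50. In the saline group replicate 7 held the other 3: Rpl10l at -5.48 with the nearest unit at -3.47, Rpl14 at 3.52 with the nearest at 4.09, and Rplp1 at 5.71 with the nearest at 5.96. Saline replicate 7 also had the lowest level of the family among saline units, at 3.69.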

How the results depend on the processing

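No gene, in the family or outside it, was called under any of the 36 other settings tried, all of them planned apart from 2 choices of probe that were made after seeing the data. No paired analysis was possible because the titles give the groups no shared replicate numbers. The chronic minus saline median of the family stayed below 0 in 17 of 18 settings other than leaving out a unit, and moved by more than the SD of units (0.09) only within slide 1 (-0.26) and slide 3 (0.19); the acute minus saline median did so at -0.18 and 0.23 on the same slides. The cause was not tested. With 1 unit left out the medians ran from -0.15 to -0.08 (chronic minus saline), from -0.02 to 0.04 (acute minus saline) and from -0.15 to -0.09 (chronic minus acute). The median pairwise r of 0.62 was 0.50 after quantile normalization, 0.45 with normexp and quantile normalization, 0.50 with the authors' values, 0.79 with arrays centred on the median, 0.48 with the mean of all probes of a gene and 0.31 with the probe nearest the 5′ end, and 0.60 to 0.64 with 1 array left out. With the 24 arrays fitted singly, 484, 298 and 532 genes had an unadjusted p under 0.05 in the 3 comparisons, against 599, 333 and 519 with 18 units. With the title letter as a random block they were 1075, 690 and 2114, counts that rest on an estimated correlation of -0.37 between arrays of a letter. By that estimate those arrays were no more alike than others. The arrays of each letter lay on different slides and this fit had no slide term, so the estimate does not settle how alike they are. Of single named members, 27, 33 and 22 of 544 values under planned settings changed sign in the 3 comparisons, and 40, 50 and 17 of 126 within slides. The choice of probe, the slide and the scaling limit what the size of the shift shows, and dim paralogs have little signal over background.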
